A study of Mus musculus with 10 samples.

Results

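Transcripts for mitochondrial pyruvate oxidation and the citric acid cycle were examined in mouse heart muscle cells that carried dnMKL1. The genes were taken from a list of 36 symbols chosen for their roles: pyruvate import and oxidation with its kinases and phosphatases, enzymes of the cycle, and enzymes of anaplerosis and the malate-aspartate shuttle. By symbol 34 of them stood among the 23337 genes of the table, and all 34 had an adjusted p-value. The remaining 2, Mpc1 and Mpc2, stood there under their earlier symbols Brp44l and Brp44 and are described beside the 34. Of the 34, 28 fell in dnMKL1 libraries, 2 rose and 4 did not pass the test at an adjusted p-value under 0.05. Among all 14056 genes with an adjusted p-value, 34.1% passed in either direction, 17.4% as lower and 16.6% as higher. The fallen transcripts were left at 44.6% to 76.9% of their GFP level.

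The samples were cardiomyocytes of wild-type mice, 5 libraries per group, as biological replicates. In one group an AAV9 virus carried dnMKL1 together with GFP behind the cTNT promoter, the troponin T promoter active in heart muscle cells, and in the other it carried GFP alone. Both groups received 5e+08 viral genomes per gram on postnatal day 1 and were collected on postnatal day 14 by collagenase perfusion and fluorescence-activated sorting, so that virus, GFP, promoter and sorting are common to both. dnMKL1 is a dominant-negative form of MKL1, a coactivator of the transcription factor SRF, and the comparison asks how cells that carry it differ from cells with GFP alone.

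Pyruvate made in the cytosol enters the mitochondrion through the carrier formed by Mpc1 and Mpc2. The pyruvate dehydrogenase complex converts it to acetyl-CoA and is switched off by 4 kinases (Pdk1 to Pdk4) and on by 2 phosphatases (Pdp1 and Pdp2). The citric acid cycle then oxidizes the acetyl group and passes electrons to the respiratory chain, and anaplerotic enzymes refill its intermediates. The postnatal heart relies on this route and on fatty acid oxidation for most of its energy.

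Only the authors' deposited table of the group comparison was used here, so that no value per library enters. Levels are implied group means in normalized counts, computed from the deposited base mean (the average over all 10 libraries after the authors' scaling) and fold change. The replicate error of a gene stands in the standard error (SE) of its log2 fold change, and the adjusted Wald p is the authors' p-value after Benjamini-Hochberg adjustment over all tested genes. Positive fold changes mean higher in dnMKL1 libraries, a direction taken from Mkl1, from which the dominant-negative form derives, at a log2 fold change of 9.80 (SE 0.15) in the authors' deposited table. Estimated library totals ran from 8803029 to 17123577 counts in GFP and from 8835136 to 17228615 in dnMKL1 libraries. The implied group totals differed by 0.29 on the log2 scale, with dnMKL1 lower. If both totals are set equal, every log2 fold change rises by that amount, and 26 of the 34 genes were then lower and 3 higher, beside 6.6% of all genes lower. The share of all genes higher under equal totals is not given here. The median log2 fold change of all 14056 tested genes was then 0.31, in place of 0.02, so a higher call there can reflect the shift alone. In sorted bulk cells, fewer cells of a type and less RNA per cell cannot be told apart.

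The labelled cell type was checked against its defining markers: 11 of 11 cardiomyocyte markers were present and Myh6, the main heavy myosin chain of the heart, had a base mean of 594986 in the authors' deposited table. Of these 11 markers 7 were lower and 0 higher, with a median log2 fold change of -0.49. All 11 had a base mean of at least 10000, where 70.7% of 140 genes were lower, with a median of -0.60. The markers' summed level in dnMKL1 libraries was 57.8% of that in GFP libraries. Myh6, Atp2a2 and Actc1, with the largest implied means, fell to 54.9%, 53.7% and 34.1% of GFP. Mybpc3, Myl2, Pln and Actn2 did not pass, at 92.4%, 87.0%, 86.7% and 78.3%. Fibroblast markers stood at 5 of 12 higher and 0 lower (6 at an unadjusted p under 0.05), with summed implied means of 5220 and 8883 normalized counts. Most of those sums came from Col3a1 (1937 and 2625), Gsn (876 and 1951) and Fbln1 (748 and 1944), which rose. Of the 12, 7 did not pass, with the smallest change in Pdgfra (41.7 and 43.5). Endothelial markers had 0 of 12 past the test and 0 at an unadjusted p under 0.05, with sums of 4373 and 4445. Mural markers had 3 higher and 1 lower of 9, with sums of 18254 and 15947. The lower one was Acta2, with implied means of 10454 and 4999, and without it the sums of the other 8 were 7800 and 10949. Most of those 2 sums came from Abcc9, which did not pass (6332 and 7773), and Cspg4, which rose (501 and 2019). Of the 8, 3 were higher and 5 did not pass. Macrophage markers had 1 higher of 11, with sums of 183 and 162. Of 6 erythroid markers 2, Hba-a1 and Hba-a2, were listed at 0, 3 had a fold change, with 0 past the test and 0 at an unadjusted p under 0.05, and 1 was not analysed here. The part of these shifts in the results below was not tested.

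**Figure D1:**
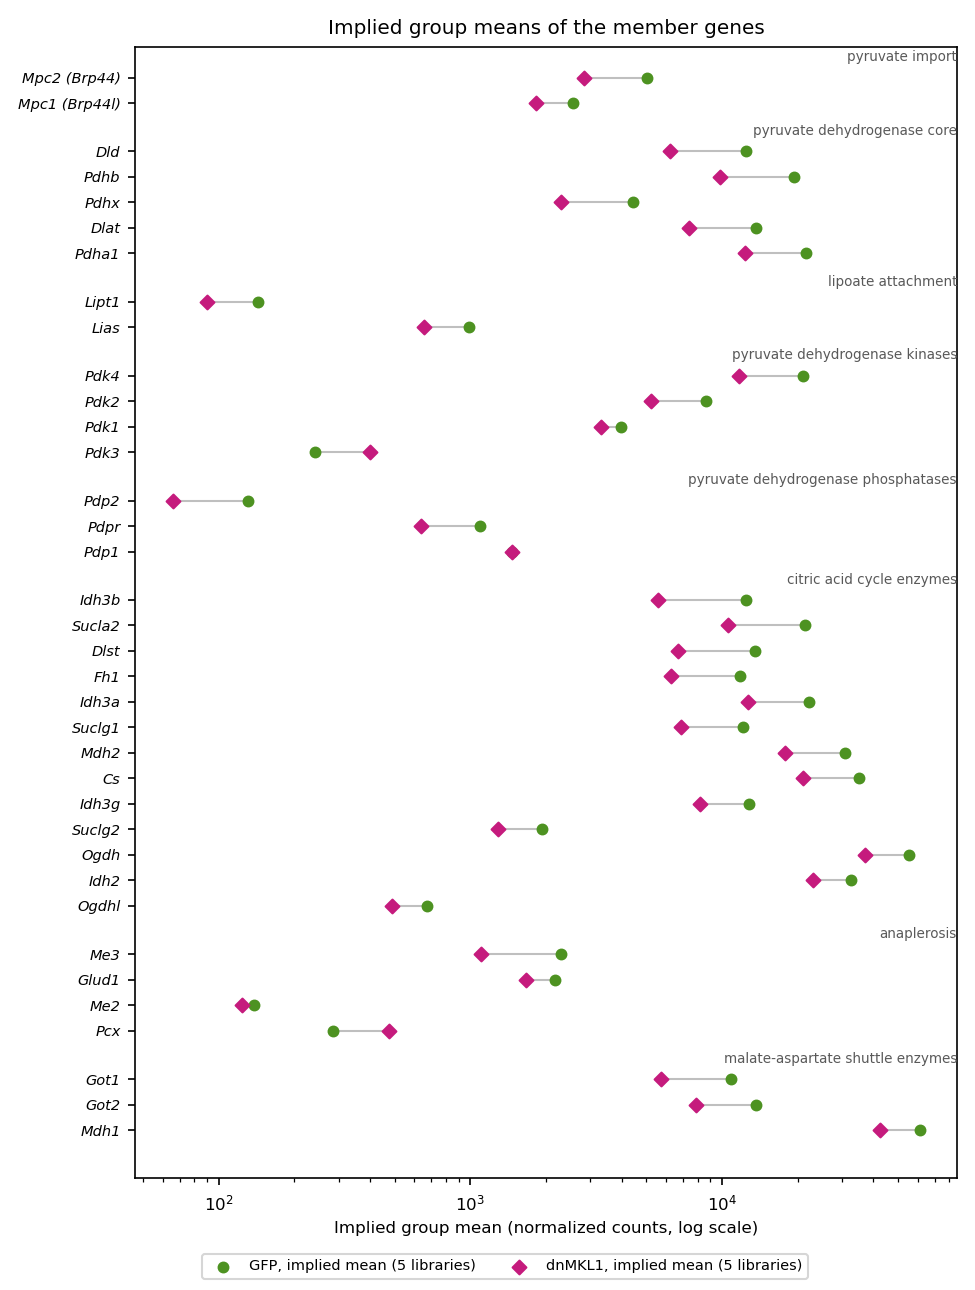
Implied group means of the 34 genes and of Mpc1 and Mpc2 in normalized counts on a log axis, by role, with a circle for the GFP group and a diamond for the dnMKL1 group (5 libraries each, no error bars because no values per library were used). Diamonds lie left of circles for most genes, on top of the circle for Pdp1, and right of it for Pdk3 and Pcx.

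Promoter sequences of genes at both ends of the response are shown first, to show which elements stand before genes that fell and before the 2 that rose. The 250 bases before the start were taken from the RefSeq promoter table (GRCm38.p6, the same assembly as mm10), which held 31 of the 34 genes. Idh3b had the largest fall, Sucla2 one of the largest, and Pdk3 and Pcx were the members that rose (for Pcx, the upstream one of 2 listed starts). Capitals mark CCAAT, the GC box GGGCGG and the NRF1 element, on either strand. The windows are chr2:130284452-130284701 (minus strand), chr14:73552536-73552785 (plus), chrX:93832151-93832400 (minus) and chr19:4510222-4510471 (plus).
Idh3b: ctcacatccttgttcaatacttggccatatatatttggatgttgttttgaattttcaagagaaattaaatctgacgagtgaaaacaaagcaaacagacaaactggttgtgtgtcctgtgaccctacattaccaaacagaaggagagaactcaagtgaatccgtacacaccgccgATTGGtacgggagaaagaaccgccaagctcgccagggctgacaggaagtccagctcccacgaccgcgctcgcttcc
Sucla2: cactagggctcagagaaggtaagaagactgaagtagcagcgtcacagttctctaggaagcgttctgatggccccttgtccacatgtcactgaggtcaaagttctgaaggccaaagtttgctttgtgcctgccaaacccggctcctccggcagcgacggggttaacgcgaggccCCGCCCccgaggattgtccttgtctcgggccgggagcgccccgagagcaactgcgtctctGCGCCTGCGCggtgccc
Pdk3: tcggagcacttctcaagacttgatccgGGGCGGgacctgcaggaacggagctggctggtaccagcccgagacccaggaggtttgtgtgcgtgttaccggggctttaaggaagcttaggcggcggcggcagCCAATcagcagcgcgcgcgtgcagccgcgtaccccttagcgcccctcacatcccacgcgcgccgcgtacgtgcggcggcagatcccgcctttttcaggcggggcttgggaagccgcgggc
Pcx: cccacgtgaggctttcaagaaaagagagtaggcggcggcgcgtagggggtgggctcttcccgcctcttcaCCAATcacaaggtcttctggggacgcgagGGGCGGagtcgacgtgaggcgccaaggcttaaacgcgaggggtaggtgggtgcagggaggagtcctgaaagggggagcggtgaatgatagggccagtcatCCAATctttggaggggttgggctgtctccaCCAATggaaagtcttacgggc

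Over windows that also take in 50 bases after the start, searched on both strands, CCAAT was found in 17 of the 31 genes (54.8%, against 42.8% of 9931 tested genes in the promoter table and 41.1% of all 27025 genes there). The GC box was in 20 of 31 (64.5%, against 67.8% and 38.2%). The NRF1 element, bound by a regulator of many mitochondrial genes, was in 2 of 31, Dld and Sucla2 (6.45%, against 10.8% and 5.19%). The element of the estrogen-related receptors, TNAAGGTCA, was in 0 of 31 (against 0.926% and 1.43%), and so were the CArG box, bound by SRF (1.66% and 1.81%), and the PPAR direct repeat (0.0403% and 0.0481%). The PPAR repeat can hold part of the receptor element's letters, and the other motifs were counted independently. CCAAT and the GC box stood in promoters of genes that fell, in that of Pdk3 and before the upstream start of Pcx. The 250 bases before the other listed start of Pcx (chr19:4594069-4594318) held 0 CCAAT, 0 GC boxes and 0 NRF1 elements. These matches describe letters in a short window only.

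Both transcripts of the pyruvate carrier fell. Mpc2, under its earlier symbol Brp44, fell from an implied mean of 5048 normalized counts in GFP to 2842 in dnMKL1 libraries, a log2 fold change of -0.83 in the authors' deposited table (SE 0.15, adjusted Wald p = 7.6e-07). Mpc1, under Brp44l, fell from an implied mean of 2553 normalized counts in GFP to 1826 in dnMKL1 libraries, a log2 fold change of -0.48 in the authors' deposited table (SE 0.15, adjusted Wald p = 0.0055). With both totals set equal, the log2 fold change of Mpc1 was -0.20 and did not pass the test (adjusted p recomputed from the DESeq2 Wald test = 0.29). That of Mpc2 was -0.54 and passed (adjusted p recomputed from the DESeq2 Wald test = 0.0014).

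All 5 genes of the pyruvate dehydrogenase core fell, with a median log2 fold change of -0.96. Pdha1, the E1 alpha subunit that the kinases phosphorylate, fell from an implied mean of 21560 normalized counts in GFP to 12373 in dnMKL1 libraries, a log2 fold change of -0.80 in the authors' deposited table (SE 0.09, adjusted Wald p = 1.0e-16). Its partner Pdhb, the E1 beta subunit, fell from an implied mean of 19293 normalized counts in GFP to 9865 in dnMKL1 libraries, a log2 fold change of -0.97 in the authors' deposited table (SE 0.12, adjusted Wald p = 1.6e-13). Dlat, the E2 acetyltransferase that carries the lipoyl arms, fell from an implied mean of 13601 normalized counts in GFP to 7428 in dnMKL1 libraries, a log2 fold change of -0.87 in the authors' deposited table (SE 0.12, adjusted Wald p = 1.8e-12). Together these make up the catalytic path from pyruvate to acetyl-CoA, and each was left at between 51.1% and 57.4% of its GFP level. Pdhx, the protein that anchors E3 to the core, fell from an implied mean of 4438 normalized counts in GFP to 2286 in dnMKL1 libraries, a log2 fold change of -0.96 in the authors' deposited table (SE 0.10, adjusted Wald p = 1.5e-18). Dld, the E3 subunit shared with the oxoglutarate and branched-chain dehydrogenases, fell from an implied mean of 12474 normalized counts in GFP to 6207 in dnMKL1 libraries, a log2 fold change of -1.01 in the authors' deposited table (SE 0.10, adjusted Wald p = 6.8e-20). Summed per kilobase of transcript, the 5 genes went from 30367 to 16058 normalized counts per kb, to 52.9%. The order of their per-length levels was Pdhb, Pdha1, Dld, Dlat and Pdhx in both groups. The share of Pdha1 in the sum was 24.9% in GFP and 27.1% in dnMKL1 libraries, and the shares of the other subunits moved less. Whether the subunits differed from each other in their fold change was not tested.

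Lipoate, the cofactor of the E2 subunits, is made on protein by Lias and handed on by Lipt1. Lias fell from an implied mean of 990.3 normalized counts in GFP to 656 in dnMKL1 libraries, a log2 fold change of -0.59 in the authors' deposited table (SE 0.09, adjusted Wald p = 1.3e-09). Lipt1 fell from an implied mean of 143 normalized counts in GFP to 89.6 in dnMKL1 libraries, a log2 fold change of -0.68 in the authors' deposited table (SE 0.17, adjusted Wald p = 3.5e-04). With the totals set equal, Lias stayed lower at -0.31 (adjusted p recomputed from the DESeq2 Wald test = 0.0025). Lipt1 stayed lower at -0.39 but only just passed (adjusted p recomputed from the DESeq2 Wald test = 0.044). Of Lipt1's exon bases in GENCODE M21, 262 of 2051 are shared with Mitd1, and since no use of strand is stated, reads there may come from either gene.

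Of the 4 kinases that switch the dehydrogenase off, 2 fell, 1 rose and 1 did not pass the test. Pdk4, the isoform induced by fasting and fatty acids (chr6:5483351-5496309, minus strand in GENCODE M21 on GRCm38), fell from an implied mean of 21065 normalized counts in GFP to 11654 in dnMKL1 libraries, a log2 fold change of -0.85 in the authors' deposited table (SE 0.25, adjusted Wald p = 0.0026). Pdk2, a broadly expressed isoform, fell from an implied mean of 8628 normalized counts in GFP to 5243 in dnMKL1 libraries, a log2 fold change of -0.72 in the authors' deposited table (SE 0.08, adjusted Wald p = 1.0e-15). Pdk3 (chrX:93764607-93832201, minus strand) rose from an implied mean of 243 normalized counts in GFP to 398 in dnMKL1 libraries, a log2 fold change of 0.72 in the authors' deposited table (SE 0.20, adjusted Wald p = 0.0019). Pdk1, a target of hypoxia signalling, had implied means of 3966 and 3295 normalized counts and did not pass the test, with a log2 fold change of -0.27 in the authors' deposited table (SE 0.13, adjusted Wald p = 0.087) and a 95% interval from -0.51 to -0.02. Under equal totals Pdk1 stood at 0.02. Pdk4 stayed lower at -0.57 but only just passed (adjusted p recomputed from the DESeq2 Wald test = 0.047). Pdk2 stayed lower at -0.43 (adjusted p recomputed from the DESeq2 Wald test = 2.3e-06). Pdk3 stayed higher at 1.00 (adjusted p recomputed from the DESeq2 Wald test = 3.9e-06).

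Per kilobase of transcript, Pdk4 was the most abundant kinase in both groups, followed by Pdk2, Pdk1 and Pdk3. Pdk4 went from 6046 to 3345 normalized counts per kb and Pdk2 from 3842 to 2334. Pdk3 went from 115 to 188, so that its rise took place at a level far under those of Pdk4 and Pdk2. The sum over the 4 kinases went to 60.4% of its GFP level. The share of Pdk4 in that sum was 56.2% in GFP and 51.4% in dnMKL1 libraries, that of Pdk2 35.7% and 35.9%, that of Pdk1 7.10% and 9.77%, and that of Pdk3 1.07% and 2.90%. These shares rest on the longest coding transcript of each gene. They carry no error, since no values per library were used.

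**Figure D2:**
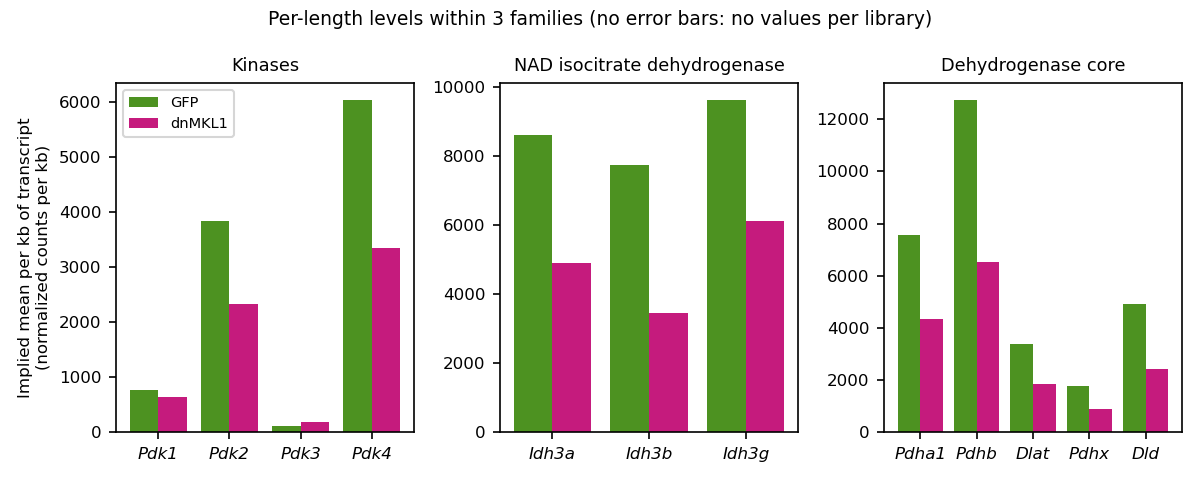
Implied group means per kb of the longest coding transcript (normalized counts per kb, linear axis from 0) for the kinases, the subunits of NAD-dependent isocitrate dehydrogenase and the dehydrogenase core, with 1 bar for the GFP and 1 for the dnMKL1 group and no error bars. Each pair falls except Pdk3, whose bars are the smallest among the kinases.

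Among the phosphatases that switch the dehydrogenase on, 1 catalytic subunit did not pass the test and the other 2 genes fell. Pdp1, the calcium-stimulated catalytic subunit, had implied means of 1466 and 1471 normalized counts, with a log2 fold change of 0.0051 in the authors' deposited table (SE 0.07, adjusted Wald p = 0.97). Its 95% interval, from -0.14 to 0.15, was the narrowest around 0 of the 4 genes that did not pass. Pdp2, the isoform whose activity insulin raises, fell from an implied mean of 131 normalized counts in GFP to 65.6 in dnMKL1 libraries, a log2 fold change of -0.997 in the authors' deposited table (SE 0.21, adjusted Wald p = 1.2e-05). Pdpr, the regulatory subunit, fell from an implied mean of 1097 normalized counts in GFP to 636 in dnMKL1 libraries, a log2 fold change of -0.79 in the authors' deposited table (SE 0.14, adjusted Wald p = 3.6e-07). Per kilobase, Pdp1 stood at 349 and Pdp2 at 23.0 normalized counts per kb in GFP libraries, so Pdp1 made up 93.8% of the catalytic transcripts there and 96.8% in dnMKL1 libraries. With totals set equal, Pdp1 was higher, at 0.29 (adjusted p recomputed from the DESeq2 Wald test = 3.0e-04). The median of all tested genes was then 0.31, so Pdp1 stood near that of a typical gene. The ratio of kinase to phosphatase transcripts was not tested.

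Of the 13 enzymes of the citric acid cycle 12 fell, with a median log2 fold change of -0.80, beside 17.4% of all tested genes lower. Their summed level in dnMKL1 libraries was 59.9% of that in GFP libraries. Cs, Idh2, Idh3a, Idh3g, Ogdh, Dlst, Sucla2 and Mdh2 had base means of at least 10000. In that class 70.7% of 140 genes were lower, with a median of -0.60. Cs, citrate synthase, which joins acetyl-CoA to oxaloacetate, fell from an implied mean of 35016 normalized counts in GFP to 20998 in dnMKL1 libraries, a log2 fold change of -0.74 in the authors' deposited table (SE 0.11, adjusted Wald p = 1.3e-10). The subunits of NAD-dependent isocitrate dehydrogenase, which makes oxoglutarate, all fell. Idh3b, a regulatory subunit (chr2:130279309-130284547, minus strand in GENCODE M21 on GRCm38), fell from an implied mean of 12495 normalized counts in GFP to 5574 in dnMKL1 libraries, a log2 fold change of -1.16 in the authors' deposited table (SE 0.13, adjusted Wald p = 8.9e-17). Idh3a, the catalytic subunit, fell from an implied mean of 22202 normalized counts in GFP to 12657 in dnMKL1 libraries, a log2 fold change of -0.81 in the authors' deposited table (SE 0.11, adjusted Wald p = 6.5e-12). Idh3g, the other regulatory subunit, fell from an implied mean of 12828 normalized counts in GFP to 8166 in dnMKL1 libraries, a log2 fold change of -0.65 in the authors' deposited table (SE 0.11, adjusted Wald p = 1.6e-08). The 95% interval of Idh3b ran from -1.42 to -0.91 and that of Idh3g from -0.86 to -0.44. Per kilobase, Idh3b went from 29.8% to 23.8% of the 3 subunits' sum and Idh3g from 37.1% to 42.3%, and the difference was not tested. Idh2, the NADP-dependent mitochondrial enzyme, fell from an implied mean of 32432 normalized counts in GFP to 23068 in dnMKL1 libraries, a log2 fold change of -0.49 in the authors' deposited table (SE 0.12, adjusted Wald p = 2.1e-04). It was 1 of 2 members whose fall was no longer past the test with totals set equal (-0.20, adjusted p recomputed from the DESeq2 Wald test = 0.15).

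Oxoglutarate dehydrogenase, a complex built like pyruvate dehydrogenase, fell in its main E1 and in its E2 transcript. Ogdh, the E1 subunit, fell from an implied mean of 55451 normalized counts in GFP to 37072 in dnMKL1 libraries, a log2 fold change of -0.58 in the authors' deposited table (SE 0.09, adjusted Wald p = 8.7e-10). Dlst, the E2 succinyltransferase, fell from an implied mean of 13520 normalized counts in GFP to 6709 in dnMKL1 libraries, a log2 fold change of -1.01 in the authors' deposited table (SE 0.12, adjusted Wald p = 3.8e-16). The 95% intervals ran from -0.75 to -0.41 for Ogdh and from -1.24 to -0.78 for Dlst, and their difference was not tested. Ogdhl, a related E1 with 1.32% of the per-length level of both in GFP libraries, had implied means of 671 and 489.7 normalized counts and did not pass, at -0.45 in the authors' deposited table (SE 0.41, adjusted Wald p = 0.44). Its 95% interval, from -1.26 to 0.35, was the widest of the 34 and leaves a fall as large as the others' possible.

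Succinyl-CoA ligase, the step that makes ATP or GTP directly, fell in all 3 subunits. Suclg1, the alpha subunit shared by both forms, fell from an implied mean of 12084 normalized counts in GFP to 6893 in dnMKL1 libraries, a log2 fold change of -0.81 in the authors' deposited table (SE 0.12, adjusted Wald p = 7.7e-11). Sucla2, the beta subunit of the ATP form, fell from an implied mean of 21312 normalized counts in GFP to 10560 in dnMKL1 libraries, a log2 fold change of -1.01 in the authors' deposited table (SE 0.11, adjusted Wald p = 1.5e-18). Suclg2, the beta subunit of the GTP form, fell from an implied mean of 1930 normalized counts in GFP to 1286 in dnMKL1 libraries, a log2 fold change of -0.59 in the authors' deposited table (SE 0.08, adjusted Wald p = 1.0e-10). Per kilobase, Sucla2 made up 94.3% of the beta subunit transcripts in GFP and 92.5% in dnMKL1 libraries. Fh1, fumarase, fell from an implied mean of 11852 normalized counts in GFP to 6288 in dnMKL1 libraries, a log2 fold change of -0.91 in the authors' deposited table (SE 0.10, adjusted Wald p = 2.9e-19). Mdh2, mitochondrial malate dehydrogenase, which closes the cycle and serves the shuttle, fell from an implied mean of 30946 normalized counts in GFP to 17742 in dnMKL1 libraries, a log2 fold change of -0.80 in the authors' deposited table (SE 0.10, adjusted Wald p = 3.6e-13). Per kilobase Mdh2 was the most abundant of the 13 cycle transcripts in GFP libraries, with 21254 normalized counts per kb, ahead of Idh2 with 18586. In dnMKL1 libraries the order of these 2 was reversed, with 13219 for Idh2 and 12185 for Mdh2.

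**Figure D3:**
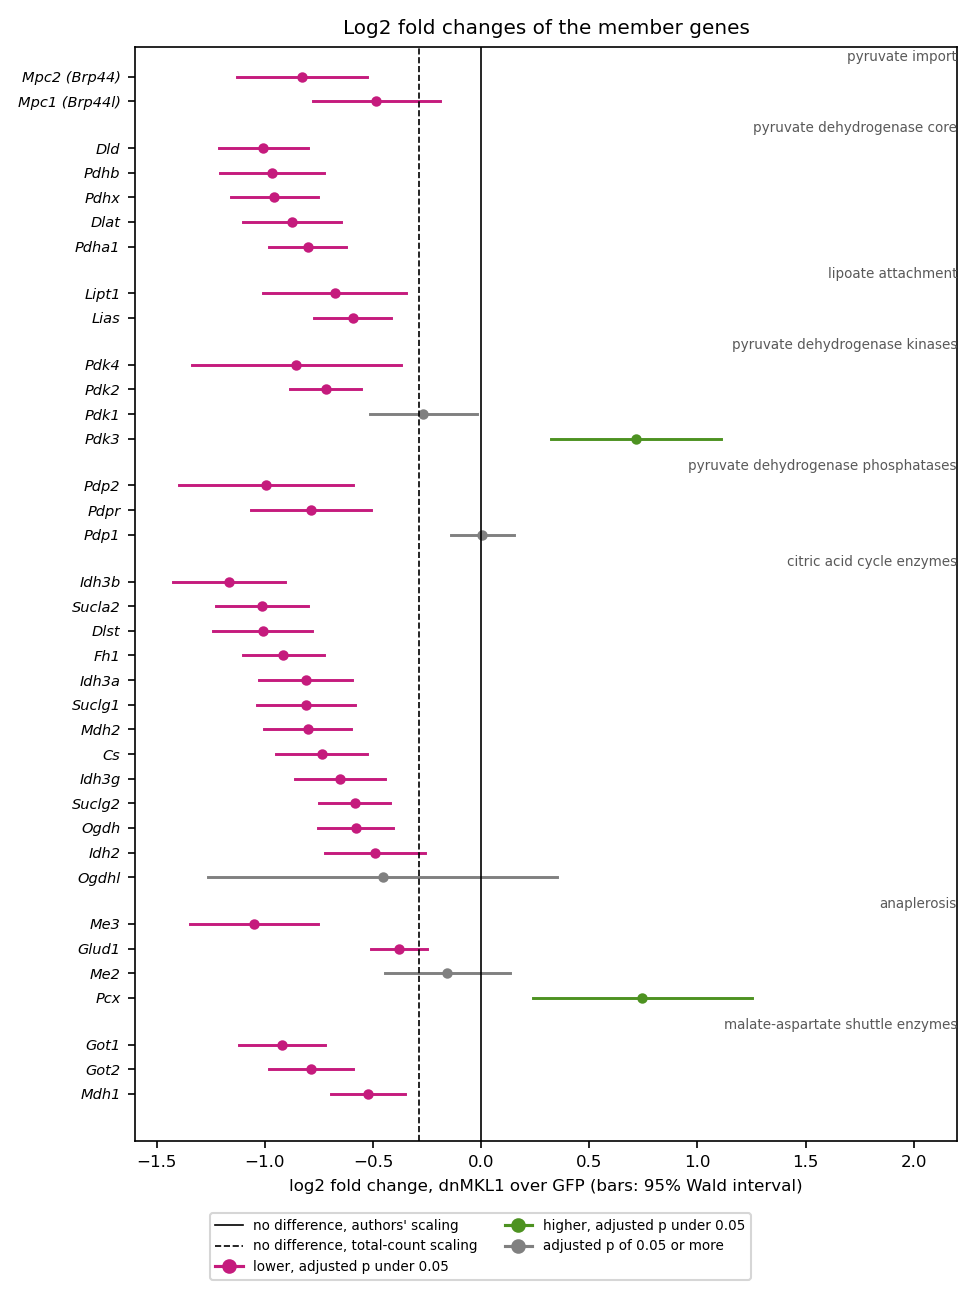
Log2 fold changes of dnMKL1 over GFP from the authors' deposited table for the 34 genes and Mpc1 and Mpc2, by role, with 95% Wald intervals; colours mark the direction of genes with an adjusted p under 0.05. The solid line marks no difference under the authors' scaling and the dashed line, at -0.29, no difference with both totals set equal; falls lie between -1.16 and -0.38, and Pdk3 and Pcx lie right of both lines.

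Enzymes that feed carbon into the cycle were mixed. Me3, a mitochondrial malic enzyme that uses NADP, fell from an implied mean of 2296 normalized counts in GFP to 1108 in dnMKL1 libraries, a log2 fold change of -1.05 in the authors' deposited table (SE 0.15, adjusted Wald p = 9.1e-11). Me2, its NAD-dependent relative, had implied means of 138 and 123 normalized counts and did not pass, with a log2 fold change of -0.16 in the authors' deposited table (SE 0.15, adjusted Wald p = 0.46) and a 95% interval from -0.44 to 0.13. Under equal totals Me2 turned to 0.13, without passing. Me3 made up 90.8% of the per-length level of both in GFP and 84.1% in dnMKL1 libraries. Pcx, pyruvate carboxylase, which makes oxaloacetate from pyruvate (chr19:4510472-4621752, plus strand in GENCODE M21 on GRCm38), rose from an implied mean of 284 normalized counts in GFP to 475 in dnMKL1 libraries, a log2 fold change of 0.74 in the authors' deposited table (SE 0.26, adjusted Wald p = 0.015). The rise of Pcx was not past an adjusted p of 0.01. Glud1, glutamate dehydrogenase, showed the smallest fall among the 28, from an implied mean of 2171 normalized counts in GFP to 1669 in dnMKL1 libraries, a log2 fold change of -0.38 in the authors' deposited table (SE 0.07, adjusted Wald p = 1.3e-07). With totals set equal Glud1 stood at -0.09 and did not pass (adjusted p recomputed from the DESeq2 Wald test = 0.26).

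The malate-aspartate shuttle, which moves reducing equivalents from the cytosol into the mitochondrion, fell in its cytosolic and mitochondrial enzymes. Mdh1, the cytosolic malate dehydrogenase and the gene with the largest base mean of the 34, fell from an implied mean of 61046 normalized counts in GFP to 42483 in dnMKL1 libraries, a log2 fold change of -0.52 in the authors' deposited table (SE 0.09, adjusted Wald p = 3.2e-08). Got1, the cytosolic aspartate aminotransferase, fell from an implied mean of 10866 normalized counts in GFP to 5739 in dnMKL1 libraries, a log2 fold change of -0.92 in the authors' deposited table (SE 0.10, adjusted Wald p = 2.0e-17). Got2, the mitochondrial one, fell from an implied mean of 13671 normalized counts in GFP to 7921 in dnMKL1 libraries, a log2 fold change of -0.79 in the authors' deposited table (SE 0.10, adjusted Wald p = 1.3e-13). All 3 stayed lower with totals set equal. Of Mdh1's 2567 exon bases in GENCODE M21, 52 are shared with Wdpcp, and of the 3734 of Pdha1, 603 are shared with Map3k15, whose base means of 115 and 10.7 in the authors' deposited table are small beside those of Mdh1 and Pdha1.

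The members are mostly abundant transcripts, and abundant transcripts fell more often in this comparison. Of 140 genes whose base mean reached 10000, 70.7% were lower, and 14 of 14 members there were lower, with a median log2 fold change of -0.80 against -0.60 for the class. Between 1000 and 10000, 40.1% of 1986 genes were lower, and 10 of 12 members, with medians of -0.86 and -0.13. Between 100 and 1000, 19.3% of 6515 genes were lower, and 3 of 7 members (Lias, Lipt1 and Pdpr), with medians of -0.45 and 0.0076. This last class also held both genes that rose. The single member with a base mean under 100 was Pdp2. Over all 34 the median was -0.79, against 0.02 over all tested genes, and 28 of the 34 lay under the median of their class. Of the 6 above it, Idh2, Mdh1 and Ogdh were lower than in GFP libraries all the same, at base means of 27750, 51765 and 46262, and the others were Pdk3, Pdp1 and Pcx.

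**Figure D4:**
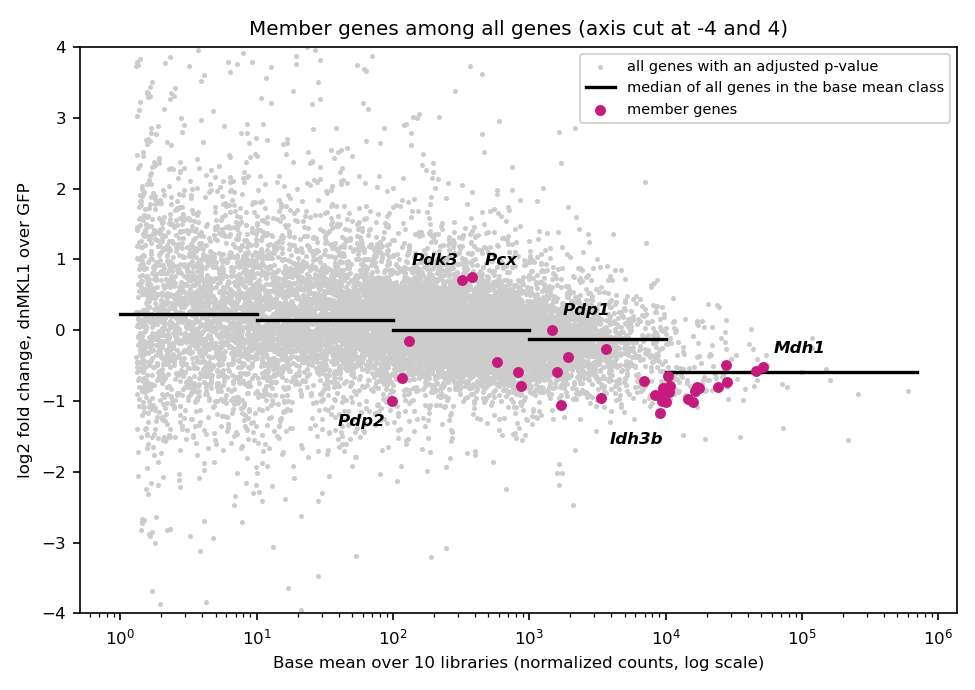
Log2 fold change against base mean (log axis, normalized counts over 10 libraries) for all 14056 genes with an adjusted p-value in grey and the 34 members in colour, with the median of each base mean class as a black line; values beyond the axis limits are not drawn. Most members lie under the line of their class, and Pdk3, Pcx and Pdp1 lie above it.

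The deposited SEs also imply a fitted spread of libraries beyond counting error, with a single value per gene for both groups. It comes from the fitted comparison and was not measured on values per library. As a coefficient of variation, this spread had a median of 12.0% over the 34 genes. The medians of all genes were 11.8% for base means of 100 to 1000, 10.2% for 1000 to 10000 and 12.0% from 10000 on. Glud1 had the lowest value, 6.83%, and Pdp1 followed with 7.64%. The highest was 44.9% for Ogdhl, then 27.8% for Pcx, 27.0% for Pdk4 and 21.2% for Pdk3. Both genes that rose, and the kinase with the largest fall, were thus among the members with the largest fitted spread.

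Other genes of the pathway, a list of 52 fixed beside the members, mostly fell as well. Of these, 32 were lower, 4 higher and 16 not past the test, with a median log2 fold change of -0.47. Among all 14056 tested genes, 17.4% were lower and 16.6% higher. All 4 subunits of succinate dehydrogenase fell, with log2 fold changes from -0.98 (Sdhb) to -0.67 (Sdhc) in the authors' deposited table. Of 10 genes for lipoate and iron-sulfur cluster assembly, a grouping made after their values were seen, 8 fell (4 with totals set equal), and Nfu1 and Fdx1 did not pass. Of 8 mitochondrial carriers, grouped likewise, 5 fell (3 with totals set equal), 1 rose and 2 did not pass. With totals set equal, 21 of the 52 were lower and 7 higher, beside 6.6% of all tested genes lower. The share of all genes higher is not given for that scaling, and their median was then 0.31.

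The smallest p-values among the 32 were those of Slc16a1, Sdha, Gpt2, Slc25a22 and Acss1. Slc16a1, a carrier of lactate and pyruvate across the cell membrane, fell from an implied mean of 10596 normalized counts in GFP to 5192 in dnMKL1 libraries, a log2 fold change of -1.03 in the authors' deposited table (SE 0.10, adjusted Wald p = 9.2e-23). Slc25a22, a mitochondrial glutamate carrier, fell from an implied mean of 1506 normalized counts in GFP to 601 in dnMKL1 libraries, a log2 fold change of -1.32 in the authors' deposited table (SE 0.17, adjusted Wald p = 5.7e-13). Gpt2, the mitochondrial alanine aminotransferase that makes pyruvate from alanine, fell from an implied mean of 1322 normalized counts in GFP to 556 in dnMKL1 libraries, a log2 fold change of -1.25 in the authors' deposited table (SE 0.15, adjusted Wald p = 1.6e-14). Acss1, which makes acetyl-CoA from acetate in the mitochondrion, fell from an implied mean of 9300 normalized counts in GFP to 4655 in dnMKL1 libraries, a log2 fold change of -0.998 in the authors' deposited table (SE 0.13, adjusted Wald p = 1.1e-12). Sdha, the flavoprotein of succinate dehydrogenase, fell from an implied mean of 48951 normalized counts in GFP to 27516 in dnMKL1 libraries, a log2 fold change of -0.83 in the authors' deposited table (SE 0.10, adjusted Wald p = 1.1e-14).

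Among the 4 genes that rose, Slc25a1 and Acly act on citrate that leaves the mitochondrion. Slc25a1, the carrier that brings citrate to the cytosol, rose from an implied mean of 51.8 normalized counts in GFP to 175 in dnMKL1 libraries, a log2 fold change of 1.75 in the authors' deposited table (SE 0.20, adjusted Wald p = 2.0e-16). Acly, which splits citrate into acetyl-CoA and oxaloacetate there, rose from an implied mean of 612 normalized counts in GFP to 953 in dnMKL1 libraries, a log2 fold change of 0.64 in the authors' deposited table (SE 0.11, adjusted Wald p = 1.3e-07). Slc19a2, a thiamine transporter whose substrate is a cofactor precursor of the dehydrogenases, rose from an implied mean of 238 normalized counts in GFP to 409.9 in dnMKL1 libraries, a log2 fold change of 0.78 in the authors' deposited table (SE 0.19, adjusted Wald p = 2.3e-04). Pck2, the mitochondrial carboxykinase that turns oxaloacetate into phosphoenolpyruvate, rose from an implied mean of 61.6 normalized counts in GFP to 102 in dnMKL1 libraries, a log2 fold change of 0.72 in the authors' deposited table (SE 0.21, adjusted Wald p = 0.0026). Ldha, which makes lactate from pyruvate, had implied means of 26333 and 29213 normalized counts and a log2 fold change of 0.15 in the authors' deposited table (SE 0.07, adjusted Wald p = 0.08), while Ldhb, the heart form of lactate dehydrogenase, fell to 72.7% with -0.46 there (SE 0.13, adjusted Wald p = 0.0015). With totals set equal Ldha was higher, at 0.44, beside a median of 0.31 over all tested genes, and Ldhb did not pass, at -0.17.

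**Figure D5:**
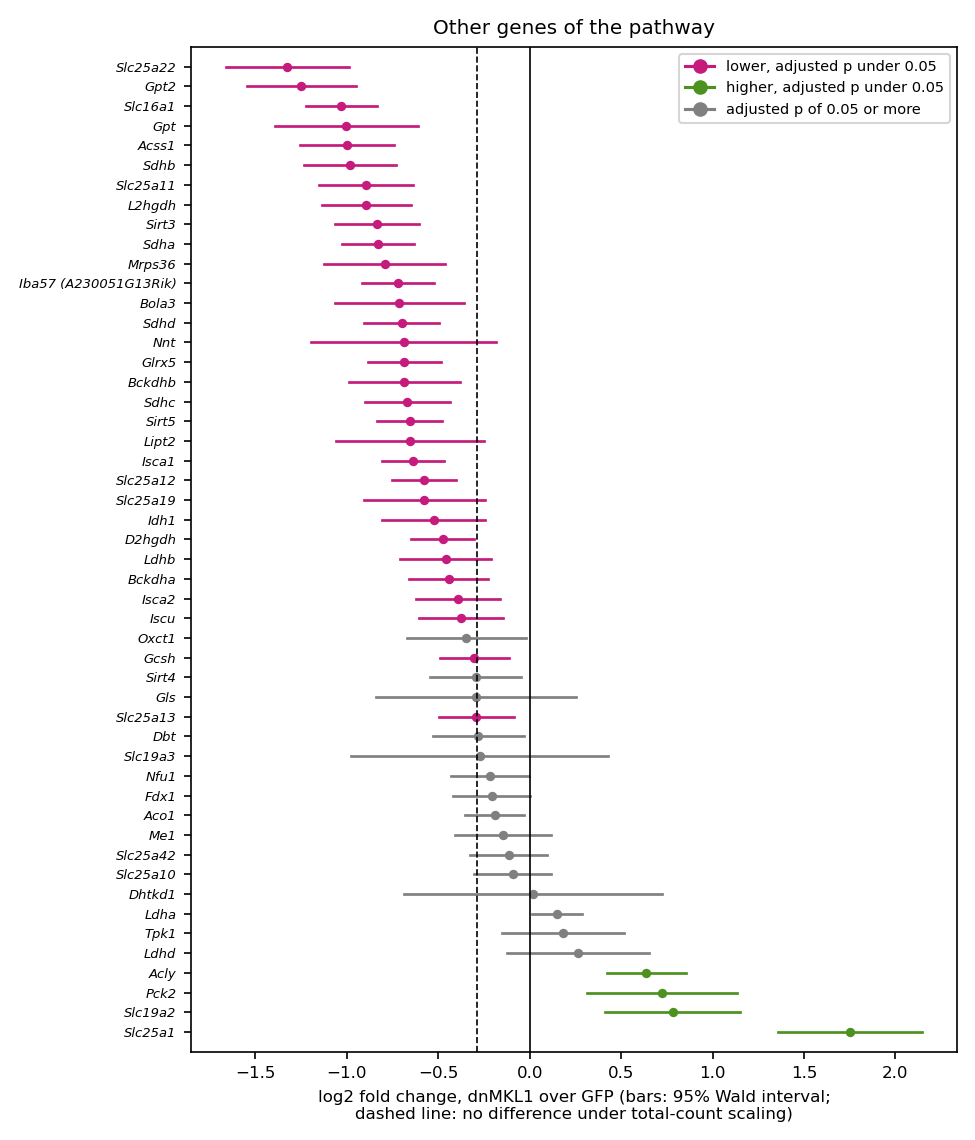
Log2 fold changes of dnMKL1 over GFP from the authors' deposited table, with 95% Wald intervals, for 50 of the 52 other pathway genes, sorted by value (Pck1, without an adjusted p-value, and 1 further gene are not drawn); the dashed line marks no difference with both totals set equal. Slc25a22 lies lowest at -1.32 and Slc25a1 highest at 1.75.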

How the data were processed

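RNA of sorted cardiomyocytes from 5 GFP and 5 dnMKL1 libraries was sequenced after SMART-Seq amplification and Nextera XT preparation, per the labels' protocols. The submitters' processing notes name CASAVA 1.8, STAR 2.5.3a, featureCounts, Subread 1.5.2 and the build mm10; annotation and use of strand are not given in the sources used here. The 1 table used is the authors' comparison, whose columns are those DESeq2 writes, per the file headers. The deposited base mean is a signal in normalized counts, fold change and SE were deposited in log2 units, the Wald statistic as deposited is a score, and the deposited p-value and its Benjamini-Hochberg adjusted form cover 14056 genes (recomputed with a largest gap of 1.4e-07).

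For implied group means, both groups of 5 libraries were given equal weight in the base mean. Intervals are 95% Wald intervals. Library size factors, read off genes seen as a single read in a single library, give the estimated totals and, with each SE, the negative binomial dispersion whose square root is the coefficient of variation. The calculations were tested on simulated data. The labels name no molecular identifiers. Transcript lengths and positions are from GENCODE M21 (GRCm38). Python 3.11.15, numpy 2.4.6, pandas 2.3.3 and scipy 1.17.1 were used.

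Members and lists were chosen with earlier results of these data known. Full statistics were given for kinases, phosphatases and members with an absolute log2 fold change of at least 0.5, and for the member of each role with the smallest p; of other pathway genes, for the 5 smallest p in each direction. A listed gene that is counted but not named is not reported here. Beyond this rule, full statistics were also given for Mpc1, Idh2, Ogdhl, Me2 and Glud1 after their values were seen. Ldha, Ldhb, Sdhb, Sdhc, Nfu1, Fdx1 and Acta2 were named likewise. So were the markers Atp2a2, Actc1, Mybpc3, Myl2, Pln, Actn2, Col3a1, Gsn, Fbln1, Pdgfra, Abcc9 and Cspg4. The plan allowed for counts per library; with none used, edgeR was not run. Alternatives were other thresholds, total-count scaling (equal group totals, with the shift added to each log2 fold change, the Wald p recomputed from its SE and adjusted over the same genes), median-centring, adjustment over all p-values, a base mean of at least 100, median transcript lengths the earlier symbols of Mpc1 and Mpc2, and the mural sum without Acta2, the last 2 chosen after seeing the data.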

Additional observations from a re-analysis of the deposited data

How the results depend on the processing

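No paired analysis was possible because only the comparison of group means, without columns per library, was analysed. Hence count tests on libraries and fits that each leave out 1 library were not run, so whether 1 library decides a value was not tested. The 34 members had 28 lower and 2 higher genes under the authors' scaling; the count of higher genes was 1 at an adjusted p under 0.01, since Pcx no longer passed. Total-count scaling moved the members' median log2 fold change from -0.79 to -0.50, by the shift itself, and changed single members: Pdk1 turned to 0.021 and Me2 to 0.13, neither past the test, Pdp1 became higher, and Idh2 and Glud1 no longer passed. The median of all tested genes moved by the same shift, from 0.02 to 0.31. Under total-count scaling the other pathway genes had 21 lower and 7 higher, in place of 32 and 4, fibroblast markers 9 called in place of 5, and mural markers 5 higher in place of 3. Macrophage markers called went from 1 to 0 at an adjusted p under 0.01, 2 at 0.1 and 0 with a base mean of at least 100. A call of every one of the 34 members was kept with median-centring and with adjustment over all p-values. With Mpc1 and Mpc2 added, 30 of 36 were lower. With median in place of longest transcript lengths, the share of Pdk4 was 68.7% in GFP and 64.5% in dnMKL1 libraries. The lowest base means among the members were those of Pdp2, Lipt1 and Me2, from 98.2 to 131.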
